A study of Mus musculus with 2 samples.

Results

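The 41 genes described here serve the cell division cycle, and they were followed through RNA of newborn mouse skeletal muscle. They were taken by symbol from 43346 genes in the deposited tables and sorted by textbook role into 10 genes of DNA replication, 25 of mitosis and 6 of G1 control. All 41 had a row in both libraries. The study has 2 libraries of 1 group, called biological replicates 1 and 2 by the labels, both of skeletal muscle of B6NCrl mice at postnatal day 0 with no treatment or engineered allele named. Each was made from 13 pg of total RNA, an amount equated with 1 cell, out of a tissue portion of 1 pup. The assay is labelled single cell, but the RNA came from tissue and not from an isolated cell. Sex was not recorded. Both libraries carry the same donor entry, so whether they came from separate pups is not known. There is no second condition, so no test between groups could be made, and the spread between the libraries may hold differences of animal, tissue portion and library that cannot be told apart.

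A cell that divides copies its DNA in S phase and parts the copies in mitosis. In G1, cyclins and their kinases commit the cell to this course, and inhibitors of those kinases hold it back. In muscle around birth, myogenic precursors still divide and feed growing fibres, while nuclei inside a fibre have left the cycle for good, and fibroblasts, endothelial cells and blood cells of the same tissue can divide too. The tables do not say which of these cells a transcript came from, and in RNA of a whole tissue fewer cells of a type and less RNA per cell cannot be told apart.

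Replication and mitosis genes are known for short promoter elements that bind the E2F, DREAM, B-MYB and NF-Y factors. Promoters of 33 of the 41 genes were in the RefSeq table of GRCm38.p6, each from 250 bases before to 50 bases after a start site. Motifs were searched on both strands, with overlaps between motifs allowed. The cell cycle genes homology region or CHR was searched as TTTGAA, and the box bound by NF-Y was searched as CCAAT. For an E2F motif the letters TTTCGCG were searched, as were the letters TTTGGCG and also the letters TTTCCCG. A CHR was present for 15 of 20 mitosis genes (75%), 1 of 9 replication genes and 0 of 4 G1 genes, against 20.2% of all 27025 genes of the table. A CCAAT box was present for 18 of 20 mitosis genes, 8 of 9 replication genes and 1 of 4 G1 genes, against 41.1% of all genes. An E2F motif was present for 4 of 9 replication genes, 3 of 20 mitosis genes and 1 of 4 G1 genes, against 6.38% of all genes. A match is a description of letters and not a bound site.

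The promoters of 6 mitosis genes are printed because they carry a CHR with CCAAT boxes upstream of it, the arrangement for which this gene class is known. Cdk1, Ccnb2, Ube2c and Top2a were read in both libraries, and Kif11 and Cenpf passed the detection rule in replicate 2. Each run covers 160 bases before to 20 bases after the start, 5′ to 3′ on the strand of the gene, with CHR and CCAAT letters of either strand in capitals. The positions are chr10:69352893-69353072 on the minus strand for Cdk1, chr9:70421535-70421714 on the minus strand for Ccnb2 and chr2:164769769-164769948 on the plus strand for Ube2c. Top2a lies at chr11:99024170-99024349 on the minus strand, Kif11 at chr19:37376222-37376401 on the plus strand and Cenpf at chr1:189688067-189688246 on the minus strand.
Cdk1: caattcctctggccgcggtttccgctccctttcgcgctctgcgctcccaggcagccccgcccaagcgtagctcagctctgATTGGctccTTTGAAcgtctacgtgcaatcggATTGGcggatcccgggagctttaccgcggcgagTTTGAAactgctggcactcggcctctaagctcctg
Ccnb2: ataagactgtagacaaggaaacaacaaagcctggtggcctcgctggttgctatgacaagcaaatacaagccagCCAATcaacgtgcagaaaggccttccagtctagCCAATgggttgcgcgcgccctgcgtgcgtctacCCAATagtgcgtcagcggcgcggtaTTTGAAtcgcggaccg
Ube2c: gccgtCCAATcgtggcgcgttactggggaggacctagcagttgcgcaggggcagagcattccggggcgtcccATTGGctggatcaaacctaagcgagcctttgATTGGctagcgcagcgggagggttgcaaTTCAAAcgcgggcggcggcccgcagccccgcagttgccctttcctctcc
Top2a: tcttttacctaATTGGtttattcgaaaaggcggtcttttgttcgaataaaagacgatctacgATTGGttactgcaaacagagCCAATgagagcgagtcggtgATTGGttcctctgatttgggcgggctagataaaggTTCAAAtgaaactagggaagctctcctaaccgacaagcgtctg
Kif11: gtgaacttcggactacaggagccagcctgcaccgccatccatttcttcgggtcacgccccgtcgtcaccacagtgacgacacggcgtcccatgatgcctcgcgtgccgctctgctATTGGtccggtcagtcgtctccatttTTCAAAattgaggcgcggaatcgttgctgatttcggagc
Cenpf: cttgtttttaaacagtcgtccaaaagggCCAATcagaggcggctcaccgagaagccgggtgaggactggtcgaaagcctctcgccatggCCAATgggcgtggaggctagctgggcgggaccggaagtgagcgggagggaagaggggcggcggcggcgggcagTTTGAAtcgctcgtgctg

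In Kif11 the CHR began 19 bases before the start, and in Ube2c 29 bases before it. In Cenpf it began 2 bases after the start. Cdk1 held 2 CHR copies, the nearer one 15 bases before the start, and an E2F motif that is left in lower case. Of matched mitosis genes, 8 were detected in both libraries and 8 in replicate 2 alone, the classes large enough to set side by side. A CHR was present for 6 of 8 in each of them, a CCAAT box for 6 of 8 and 8 of 8, and an E2F motif for 3 of 8 and 0 of 8. These shares were not tested. The matched mitosis genes with no TTTGAA in the window were Ccnb1, Birc5, Bub1, Cenpe and Nusap1.

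The promoters of 2 replication genes are printed for their E2F letters, which are in capitals here together with the CCAAT boxes. Both genes code for subunits of the replicative helicase and were detected in both libraries. Mcm5 lies at chr8:75109349-75109528 on the plus strand and Mcm6 at chr1:128359686-128359865 on the minus strand.
Mcm5: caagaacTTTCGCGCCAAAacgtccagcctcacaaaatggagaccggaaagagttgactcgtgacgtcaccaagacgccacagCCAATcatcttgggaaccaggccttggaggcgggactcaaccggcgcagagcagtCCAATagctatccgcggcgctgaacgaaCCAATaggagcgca
Mcm6: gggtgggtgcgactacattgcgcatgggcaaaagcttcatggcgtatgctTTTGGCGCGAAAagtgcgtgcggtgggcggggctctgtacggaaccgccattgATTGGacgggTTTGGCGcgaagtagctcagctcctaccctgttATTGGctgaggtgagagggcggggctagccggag

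In each of these promoters E2F letters of both strands overlapped in 1 palindrome-like run, and Mcm6 held a further copy beginning 47 bases before the start.

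**Figure D1:**
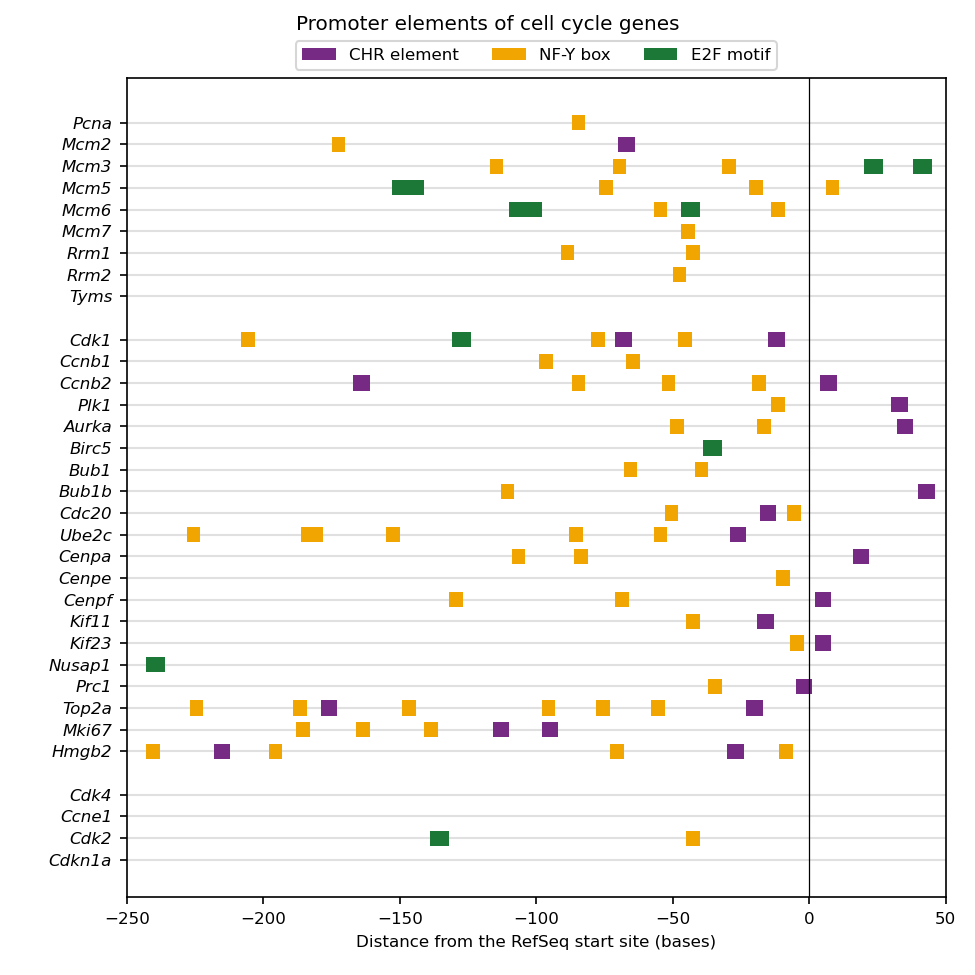
Positions of CHR, CCAAT (NF-Y box) and E2F letters in 1 RefSeq window for each of 33 cell cycle genes, by distance from the start site in bases; the lowest-placed window is drawn where a gene has more than 1. CHR bars appear in the mitosis block for 15 of 20 genes. E2F bars appear for Mcm3, Mcm5 and Mcm6 and also for Cdk1, Birc5, Nusap1 and Cdk2. The E2F letters of Mcm7 lie in a window that is not drawn.

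Read numbers are the deposited expected counts, estimates of the reads of a gene that need not be whole. Levels are given in TPM, a length-adjusted share of all transcripts, and genes are compared with each other by TPM alone. Replicate 1 held 32103374 expected counts and replicate 2 held 38977618. The share of spike-in RNA was 9.44% in replicate 1 and 4.54% in replicate 2 by TPM. Detection asked for a TPM no lower than 1 together with 5 or more reads, which 6350 genes met in replicate 1 and 6949 in replicate 2. Where a gene had 0 reads, 3 counts in that library served as the upper limit, and folds against it are lower bounds in reads scaled to the library total. There are no molecular identifiers, so bounds and intervals cover counting error only.

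Of the 41 genes 19, or 46.3% (exact 95% interval 30.7% to 62.6%), were detected in both libraries, where 10% of all genes and 18.2% of protein coding genes were. The interval takes genes as independent draws, though they are a chosen list read in the same 2 libraries. It is no test against those shares. Another 3 were detected in replicate 1 alone, against 4.60% of all and 8.22% of protein coding genes. A further 12 were detected in replicate 2 alone, against 5.98% and 10.7%. The remaining 7 were detected in neither library, against 79.4% and 62.8%. Of these 7, Aurka, Bub1b and Ccnd1 had 0 counts in both libraries, as did 72.4% of all and 54.2% of protein coding genes. Over all genes found in at least 1 library, 48.7% were found in both, and 19 such members stood against 15 found in 1 library. In all, replicate 1 held 22 of the 41 and replicate 2 held 31. The 41 are well known genes of dividing cells, so a share above that of all genes describes the list and says nothing particular to it.

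The summed level of the 41 genes was 1357 TPM in replicate 1 and 2319.7 TPM in replicate 2, or 1838 ± 681 (SD, n = 2). Replication genes summed to 298 and 351 TPM (324 ± 37.6), the closest of the 3 groups. Mitosis genes summed to 772 and 1152 TPM (962 ± 269), and G1 genes to 287 and 817 TPM (552 ± 375). All 3 sums were higher in replicate 2, and the G1 sum differed the most, through Cdk4 and Cdkn1a.

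**Figure D2:**
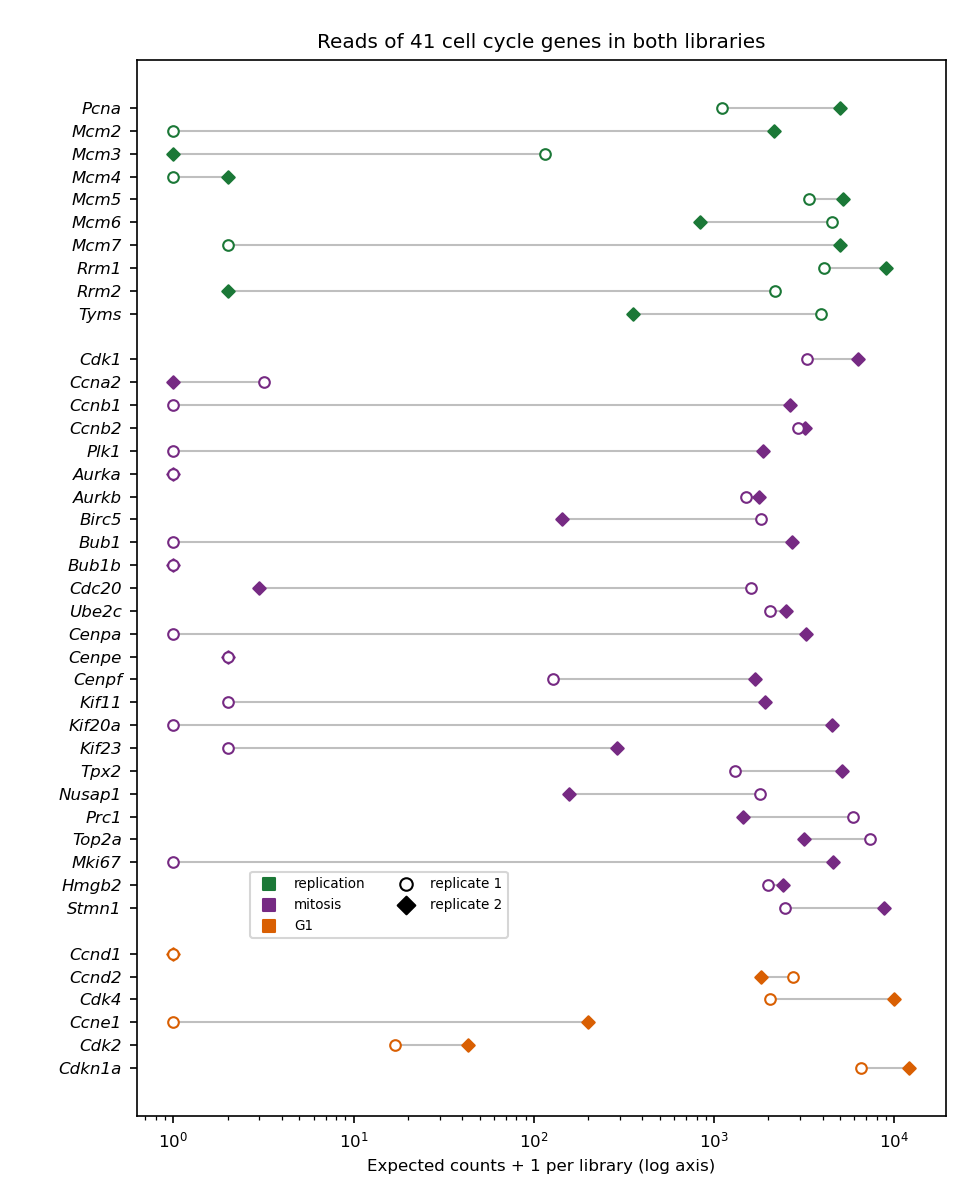
Expected counts plus 1 of each of the 41 genes on a log axis, with an open circle for replicate 1 and a filled diamond for replicate 2, coloured by group. Most symbols sit either above 1000 reads or at 0 to 2 reads, and the long lines belong to genes read in 1 library alone.

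The helicase that unwinds DNA at the fork is a ring of Mcm2 to Mcm7, 1 of each. No library held all of its subunits. Mcm5 (chromosome 8, 75109569 to 75128439) had 3357 reads in replicate 1 and 5219 in replicate 2, or 41.4 and 50.3 TPM, the closest pair of values of a replication gene. Mcm6 (chromosome 1, 128331590 to 128359664) had 4520 and 840.0 reads, or 65.9 and 9.56 TPM, a 6.89-fold higher TPM in replicate 1. Mcm2 (chromosome 6, 88883474 to 88898780) had 0 and 2157 reads, at least 592-fold more in replicate 2. Mcm7 (chromosome 5, 138164583 to 138172422) had 1 read and 5020 reads, a ratio of 4135 with a counting interval of 742 to 163342. Both were thus read well in 1 library and next to not at all in the other. Mcm3 had 114 reads and 0 reads, at least 46.1-fold more in replicate 1, and all 114 lay on 1 transcript model with a retained intron, Mcm3-203. Mcm4 had 0 reads and 1 read.

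Pcna, the sliding clamp that holds DNA polymerase on its template (chromosome 2, 132249162 to 132253314), had 1104 and 4999 reads, or 32.6 and 113 TPM. Its TPM was 3.47-fold higher in replicate 2. Processed copies of Pcna took few reads, with 5.08 and 46.8 on Pcna-ps2 and 0 on Pcna-ps1, though reads shared by near-identical copies cannot be assigned with certainty. Rrm1 and Rrm2 are the subunits of ribonucleotide reductase, which makes the building blocks of DNA. Rrm1 (chromosome 7, 102441695 to 102469771) had 4049 and 8936 reads, or 42.6 and 73.4 TPM. Rrm2 (chromosome 12, 24708241 to 24714146) had 2165 reads in replicate 1 and 1 read in replicate 2, a ratio of 2629 (471 to 103871). The partners of 1 enzyme thus came out differently in replicate 2, where Rrm1 was among the best covered members and Rrm2 was nearly unread. Tyms, thymidylate synthase (chromosome 5, 30058202 to 30073617), had 3916 and 356 reads, or 65.3 and 14.7 TPM, 4.44-fold higher in replicate 1 by TPM and 13.4-fold by reads scaled to the library total.

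Across the replication group 5 of the 10 genes were detected in both libraries, 2 in each library alone and 1 in neither. A list of 38 further replication genes covered origin recognition, the clamp loader, primase, the fork and nucleotide supply. Detected in both were 9 of them (23.7%), against 10% of all and 18.2% of protein coding genes. Another 8 were detected in replicate 1 alone, 6 in replicate 2 alone and 15 in neither. Orc3 and Orc4, subunits of the origin recognition complex, had 115 and 86.6 TPM, and 97.4 and 32.9 TPM. Rfc2, a clamp loader subunit, had 54.9 and 59.3 TPM. Of these 38 genes 17 were found in replicate 1 and 15 in replicate 2, a more even split than in mitosis lists by count, which was not tested.

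Mitosis is driven by Cdk1 with cyclin B. Cdk1 (chromosome 10, 69335146 to 69352938) had 3268 and 6323 reads, or 99.96 and 254 TPM, and had the highest TPM of the listed mitosis kinases in both libraries. Ccnb2, cyclin B2 (chromosome 9, 70407692 to 70421547), had 2935 and 3194 reads, or 83.4 and 70.9 TPM, a 1.18-fold difference. Ccnb1, cyclin B1 (chromosome 13, 100778650 to 100786570), had 0 and 2652 reads, at least 728-fold more in replicate 2. Ccna2, cyclin A2, had 2.17 and 0 reads and was detected in neither. Of the 3 listed cyclins that pair with Cdk1, Ccnb2 alone was thus detected in both libraries. The processed copy Ccnb1-ps took 0 and 11.2 reads, and Ccnb2-ps took 0.

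The chromosomal passenger complex corrects faulty attachments of chromosomes. Its kinase Aurkb (chromosome 11, 69045647 to 69051664) had 1503 and 1786 reads, or 35.6 and 31.0 TPM. Its subunit Birc5, or survivin (chromosome 11, 117849251 to 117855743), had 1813 and 142 reads, or 87.4 and 5.33 TPM, 16.4-fold higher in replicate 1 and the largest difference among the 19 genes detected in both. Aurka, the spindle pole kinase, had no read in either library, while Tpx2, its activator (chromosome 2, 152847964 to 152895321), had 1301 and 5128 reads, or 15.8 and 83.99 TPM. Plk1, polo-like kinase, had 0 and 1872 reads, at least 514-fold more in replicate 2.

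The spindle checkpoint delays anaphase by holding Cdc20, which activates the anaphase-promoting complex. Bub1, a checkpoint kinase, had 0 and 2720.0 reads, at least 747-fold more in replicate 2, and its relative Bub1b had none. Cdc20 (chromosome 4, 118432901 to 118437352) had 1610.0 reads and 2 reads, a ratio of 977 (270.1 to 8077) towards replicate 1. Ube2c, the ubiquitin-conjugating enzyme of that complex (chromosome 2, 164769898 to 164778822), had 2037 and 2506 reads, or 64.2 and 52.0 TPM. Ube2c was read alike in both libraries while Cdc20 and Bub1 came from opposite ones. The far end of Ube2c overlaps Tnnc2, a muscle fibre gene on the minus strand (chromosome 2, 164777161 to 164779967). Tnnc2 had 280942 and 382791 reads. With no strand setting given, reads of Tnnc2 that were put on Ube2c cannot be told apart, and their part in its values was not tested.

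Of the 3 Cenp genes listed, 2 were detected in replicate 2 alone and 1 in neither library. Cenpa, the histone H3 variant of the centromere (chromosome 5, 30666777 to 30674830), had 0 and 3216 reads, at least 883-fold more in replicate 2, where it reached 88.1 TPM. Cenpf had 127 and 1682 reads, or 0.98 and 15.3 TPM, so it lay just under the TPM minimum in replicate 1. Cenpe, a kinetochore kinesin, had 1 read in each. The 3 listed Kif genes, which code for motors of the spindle and of cytokinesis, were next. Kif11, which pushes spindle poles apart, had 1 read and 1904 reads, a ratio of 1568 (281 to 61973). Kif20a had 0 and 4536 reads, at least 1245-fold more. Kif23 had 1 read and 290.0 reads, or 0.01 and 2.79 TPM, which put it nearest above the TPM minimum among genes called in replicate 2. All 3 Kif genes were called in replicate 2 alone, while the kinesin Cenpe was called in neither library.

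Prc1, Nusap1 and Top2a had their higher values in replicate 1. Prc1, which bundles midzone microtubules (chromosome 7, 80294450 to 80316259), had 5932 and 1449 reads, or 88.7 and 28.0 TPM, 3.17-fold higher in replicate 1. Nusap1, a spindle microtubule binder, had 1798 and 155 reads, or 26.2 and 11.4 TPM. Top2a, the topoisomerase that untangles sister DNA (chromosome 11, 98992943 to 99024189), had 7312 and 3138 reads, or 93.5 and 19.9 TPM. It was 4.70-fold higher in replicate 1 by TPM and 2.83-fold by reads scaled to the library total. Mki67, which codes for the widely used proliferation antigen (chromosome 7, 135689784 to 135716361), had 0 and 4569 reads, at least 1254-fold more in replicate 2. Top2a and Mki67, often read side by side as markers of cycling cells, thus had their higher values in different libraries.

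Hmgb2 and Stmn1 have roles outside mitosis as well. Hmgb2, a chromatin protein (chromosome 8, 57511907 to 57515999), had 1980.2 and 2400.1 reads, or 31.3 and 29.6 TPM, the closest pair of values of the 19 at 1.06-fold. Stmn1, which destabilises microtubules (chromosome 4, 134468320 to 134473843), had 2473 and 8797 reads, or 106 and 294 TPM, the highest mean level of the mitosis group. Without them, 9 mitosis genes were detected in both.

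Across the mitosis group 11 of 25 genes were detected in both libraries, 1 in replicate 1 alone, 9 in replicate 2 alone and 4 in neither. Thus 12 were found in replicate 1 and 20 in replicate 2. Of 36 further mitosis genes, 7 (19.4%) were detected in both, 6 in replicate 1 alone, 12 in replicate 2 alone and 11 in neither. Their share in both was near the 18.2% of protein coding genes, and that of all genes was 10%. Cks1b, a subunit of Cdk complexes, had 91.7 and 122.6 TPM. Cdca3, a cell division cycle gene, had 98.8 and 58.0 TPM, and Mad2l1, a checkpoint protein, had 50.8 and 38.8 TPM. Genes found in replicate 2 alone outnumbered those found in replicate 1 alone in both mitosis lists. Over all genes found in a single library, 56.5% were found in replicate 2.

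The G1 group held the members with the highest mean TPM, which for Cdk4 came from replicate 2. Cdkn1a, the Cdk inhibitor p21 that p53 induces and that rises when myoblasts leave the cycle (chromosome 17, 29090976 to 29100727), had 6530.0 and 12059 reads, or 194 and 342 TPM. Cdk4, the kinase partner of cyclin D (chromosome 10, 127063534 to 127067920), had 2031 and 9921 reads, or 73.1 and 459.8 TPM, 6.29-fold higher in replicate 2. In replicate 1 its TPM lay below that of Stmn1, Cdk1, Top2a, Prc1, Birc5 and Ccnb2. The means of Cdkn1a and Cdk4, 268 ± 105 and 266 ± 273 TPM (SD, n = 2), did not differ beyond the spread. Ccnd2, cyclin D2 (chromosome 6, 127125162 to 127152193), had 2728 and 1815 reads, or 19.96 and 10.4 TPM. Ccnd1, cyclin D1, had no read in either library, which allows up to 3 counts per library. Of these cyclin D genes, Ccnd2 was therefore the one detected.

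Ccne1 and Cdk2 form the kinase that starts S phase. Ccne1, cyclin E1, had 0 and 198 reads, or 0 and 3.52 TPM, at least 54.4-fold more in replicate 2. Cdk2 had 16 and 42 reads, or 0.30 and 0.61 TPM, and so was read in both libraries but under the TPM minimum. It was the sole member with 5 to 99 reads in either library. Of 13 further G1 genes, 6 (46.2%) were detected in both, against 18.2% of protein coding genes. Another 2 were detected in each library alone and 3 in neither. Ccnd3, cyclin D3, had 413 and 286 TPM, above Ccnd2 in both libraries. Cdkn1c, the inhibitor p57, had 206 and 233 TPM, and Ccnh, the cyclin of the Cdk-activating kinase, had 97.1 and 71.3 TPM. Among cyclin D genes the order by TPM was thus Ccnd3, Ccnd2 and Ccnd1 in each library.

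**Figure D3:**
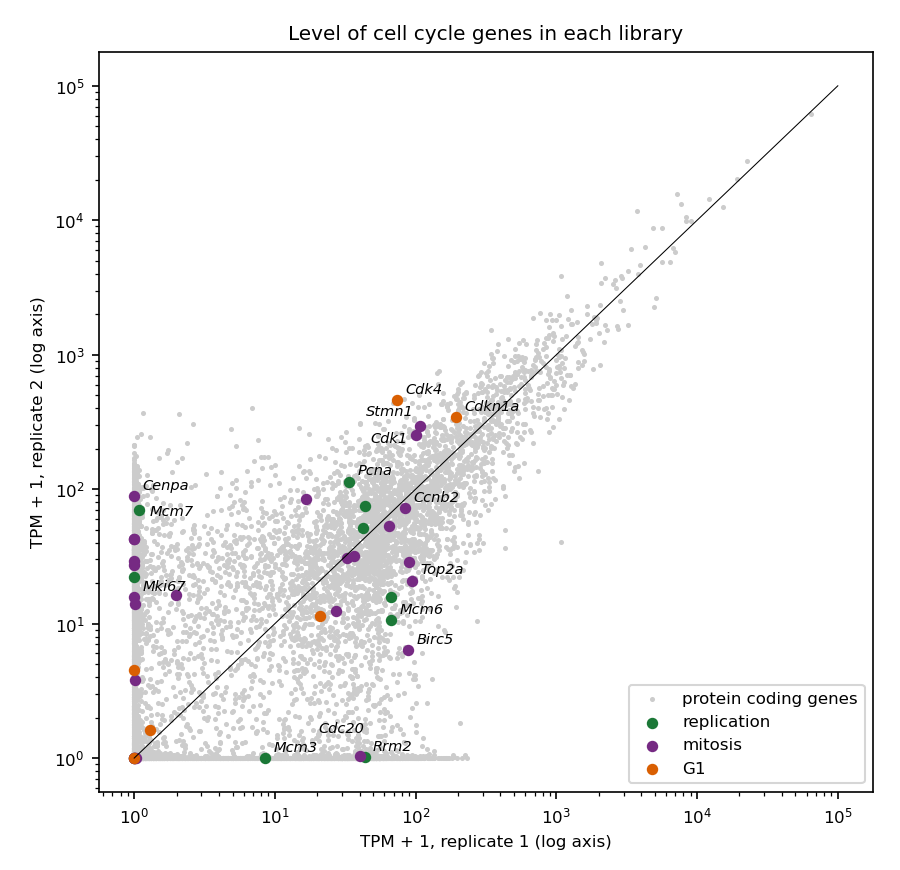
TPM plus 1 in replicate 1 (log axis) against TPM plus 1 in replicate 2 (log axis) for protein coding genes with a read (grey) and the 41 cell cycle genes (coloured), with a line of equal values. Cell cycle genes lie either scattered about the line between 5.33 and 459.8 TPM or along an axis, where Mcm3, Rrm2 and Cdc20 sit at the foot and Mki67, Mcm7 and Cenpa on the left side.

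A gene found in 1 library was as a rule well covered there. In replicate 1, 21 of 41 genes had 1000 or more reads, 12 had none and 5 had above 0 to 4 reads. In replicate 2, 25 had 1000 or more, 5 had none and 4 had above 0 to 4. Between 5 and 99 reads stood 1 gene in each library. Among all 21474 protein coding genes, 4.06% in replicate 1 and 3.01% in replicate 2 fell in that gap, against 18.7% and 21.2% with 1000 or more. The 12 genes of replicate 2 alone had 198 to 5020 reads there (median 2404) and at most 127 in replicate 1, and 8 of the 12 had 0. The 3 genes of replicate 1 alone had 114 to 2165 reads there and at most 2 in replicate 2.

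The number found was also set beside genes of like level, taking for each member the share of all genes in its TPM class that the other library held. Of 22 genes detected in replicate 1, 19 (86.4%) were found in replicate 2, where genes of like level would give 15.3 (69.6%). Of 31 detected in replicate 2, 19 (61.3%) were found in replicate 1, where genes of like level would give 19.4 (62.5%). The count from replicate 2 was thus at the level of other genes, and the count from replicate 1 was above it. For mitosis genes the counts were 11 of 12 against 8.38, and 11 of 20 against 11.9. Replication genes gave 5 of 7 against 4.73, and 5 of 7 against 4.40. G1 genes gave 3 of 3 against 2.21, and 3 of 4 against 3.03. Both directions share the same 19 genes, so they are not separate evidence, and no test was made on these counts.

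**Figure D4:**
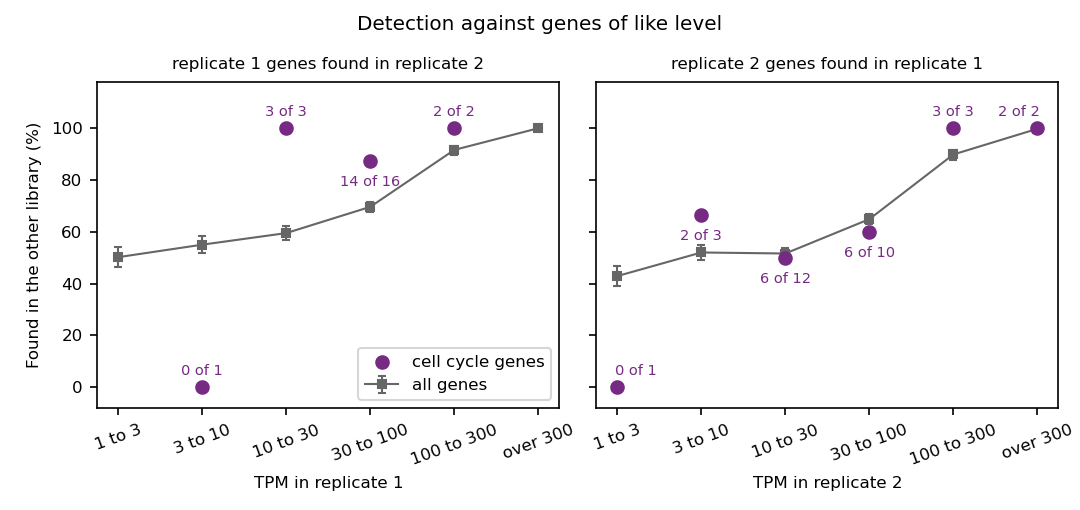
Share of genes found in the other library (percent) by TPM class in the first, for all genes (grey squares with 95% Wilson intervals) and for cell cycle genes (purple points with their counts). At 30 to 100 TPM, 14 of 16 cell cycle genes of replicate 1 were found in replicate 2 against 69.7% of all genes, and 6 of 10 of replicate 2 in replicate 1 against 64.9%.

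The 19 genes detected in both libraries had a median mean level of 56.7 TPM, from 15.2 for Ccnd2 to 268 for Cdkn1a, where all 4356 genes detected in both had a median of 46.2 (quartiles 20.3 and 109). The log2 ratio of TPM plus 1, replicate 1 over replicate 2, was centred on the median gene. By this ratio 6 of the 19 were more than 2-fold higher in replicate 1, against 22.9% of all genes detected in both. These were Birc5, Mcm6, Top2a, Tyms, Prc1 and Nusap1. Another 5 were more than 2-fold higher in replicate 2, against 21.9%, namely Cdk4, Tpx2, Pcna, Stmn1 and Cdk1. As deposited, TPM was higher in replicate 2 for 8 of the 19, against 47.6% of all genes detected in both. The SD of the ratio was 1.76 over the 19 and 1.56 over all genes detected in both. The difference between libraries thus ran in either direction, with a spread near that of other genes.

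Over the 35 members with at least 5 reads in a library, the median ratio was -0.86, with 14 above and 21 below 0, where below 0 means higher in replicate 2. Over 10002 genes chosen the same way the median was -0.13 with an SD of 3.10, and 52.8% lay below 0. By group the median was -0.31 for 9 replication genes, -1.50 for 21 mitosis genes and -0.86 for 5 G1 genes. The sign of the median over all members and over mitosis rests on genes detected in 1 library. Over members detected in both the median was 0.15 for the 19 and 0.19 for the 11 of mitosis, the opposite sign. Over all 25 mitosis genes, unread ones included, it was -0.04, which is the value of an unread gene. Spike-ins had a median ratio of 0.98, so centring on them moved the median gene to -0.94 and gave 9 members above and 26 below 0. The 5 that changed sign were Ccnb2, Aurkb, Ube2c, Hmgb2 and Ccnd2. Relative to that median gene the members' values did not change. These values compare 1 library with 1 other and have no replicate check.

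**Figure D5:**
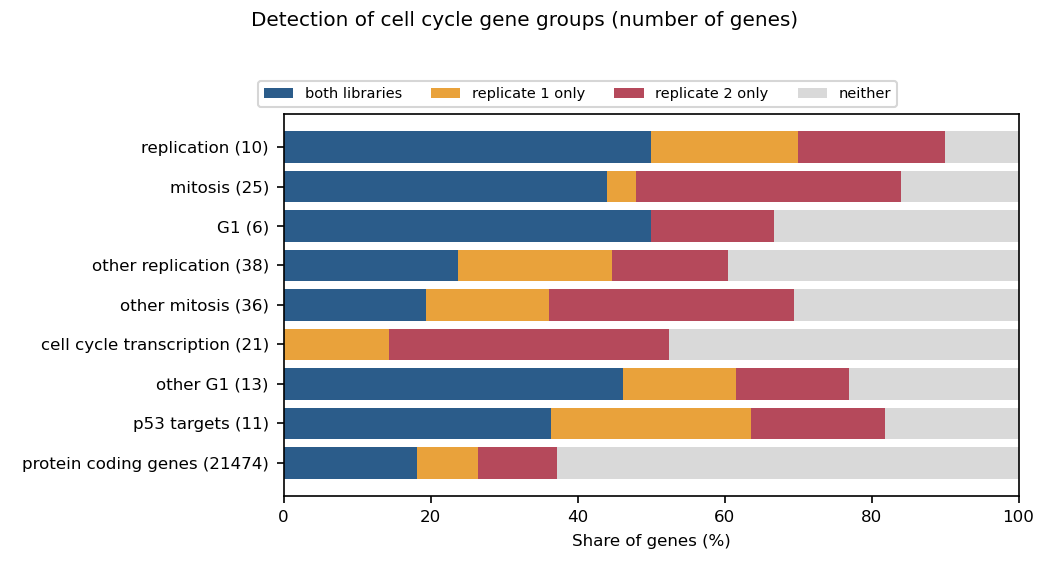
Share of genes (percent) detected in both libraries, in replicate 1 alone, in replicate 2 alone or in neither, for the 3 groups of cell cycle genes, 5 further pathway lists and all protein coding genes, with the number of genes in brackets. The 10 replication, 25 mitosis and 6 G1 genes each had 44% to 50% in both libraries, against 18.2% of protein coding genes, and the transcription list had none.

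Regulators of cell cycle transcription were detected in 1 library or in neither. Of 21 genes of the E2F, pocket protein, DREAM, MYB, Foxm1 and Myc families, 0 were detected in both libraries, 3 in replicate 1 alone, 8 in replicate 2 alone and 10 in neither. An exact 95% interval for 0 of 21, which takes genes as independent draws, reaches 16.1%. It takes in the 10% of all genes detected in both but not the 18.2% of protein coding genes. Over all genes found in at least 1 library, 48.7% were found in both. The difference was not tested. A few are named after their values were seen. Foxm1, which drives mitosis genes, had 0 and 2501 reads, E2f4, a DREAM subunit, had 25 and 3660.0 reads, and Myc had 0 and 939 reads. The 3 found in replicate 1 alone were Rb1 (201.9 and 8.77 reads), Rbl2 (699.9 and 0 reads) and E2f2 (148 and 0 reads). The summed level of all 21 genes was 41.3 TPM in replicate 1 and 281 TPM in replicate 2, under that of the mitosis genes in both.

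The transcript tables show which models the reads were put on. Of the 19 genes detected in both, 10 had the same leading model by TPM in both libraries, 5 of them with a single model, and 9 had different ones. Cdkn1a-201 led in replicate 1 and Cdkn1a-202 in replicate 2, both coding. Cdk4 was led by models with a retained intron in both, Cdk4-207 and Cdk4-209, and coding models held 28.6% and 54.0% of its reads and 16.7% and 39.2% of its TPM. Cdk1 had 46.1% and 44.8% of its TPM on models with a retained intron, but 89.0% and 81.7% of its reads on coding ones. So the high TPM of Cdk4 and Cdk1 rested in part on short models that do not code for protein.

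For several genes TPM and reads gave folds of different size, and the effective length by which reads are divided differed between the libraries. It was 2818 and 434 for Nusap1, 2458 and 775 for Tyms, 3384 and 1954 for Tpx2, and 1340 and 796 for Cdk1. For Top2a it was 3204 and 5040. In replicate 2 Nusap1 was led by the short processed transcript Nusap1-204, and coding models held 8.31% of its TPM. Tyms was led there by Tyms-205, annotated to nonsense-mediated decay, with 2.86% of TPM on coding models. Tpx2 had 53.8% of its TPM in replicate 2 on Tpx2-205, which keeps an intron. Top2a had 45.7% of its TPM on coding models in replicate 1, and its coding model Top2a-201 had 42.7 and 19.6 TPM. Cenpf had 33.5% of its TPM on coding models in replicate 2, where Cenpf-201, annotated to nonsense-mediated decay, led. Counting coding models alone, a rule chosen after the data were seen, left 17 of 41 genes detected in both. Tyms and Nusap1 then passed in replicate 1 alone and Mcm3 in neither.

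Markers of the cells that could hold these transcripts were read alongside. All 6 muscle fibre markers (Acta1, Ckm, Myh8, Myh3, Tnnt3 and Tnnc2) were detected in both libraries and summed to 110413 TPM in replicate 1 and 112466 in replicate 2, so markers of the tissue named by the labels were present. Of 5 myogenic precursor markers 3 were detected in both (Myod1, Myog and Mymk). Myf5, with 680 and 0 reads, was detected in replicate 1 alone. Pax7, with 0 and 139 reads, was detected in neither. The 5 summed to 557 and 601 TPM, mostly through Myog (201 and 264 TPM) and Mymk (340 and 319 TPM). All 7 fibroblast markers (Col1a1, Col1a2, Col3a1, Pdgfra, Dcn, Lum and Postn) were detected in both, with 7371 and 5001 TPM. Of 7 endothelial markers 4 were detected in both (Cdh5, Egfl7, Esam and Tie1), with a sum of 504 and 257 TPM in which Pecam1 alone held 182 and 0.06 TPM. Esam, Tie1 and Kdr were higher in replicate 2. Of 6 macrophage markers 4 were detected in both (C1qa, C1qb, Lyz2 and Mrc1), with 633 and 271 TPM and Adgre1 at 0 in both. None of 6 erythroid precursor markers was detected in both, with 80.9 and 30.1 TPM and Klf1 at 0 in both. That sum was nearly all Epor in replicate 1 (80.7 and 0.52 TPM) and Tfrc in replicate 2 (0.07 and 29.5 TPM). The fibroblast and macrophage sums were higher in replicate 1, as were those of the further replication genes (708 and 589 TPM) and further G1 genes (833 and 644 TPM). Not all markers shared the side of their sum. Higher in replicate 2 were Dcn (660 and 680 TPM), Lum (104 and 216 TPM) and Mrc1 (7.23 and 43.3 TPM). The sums of the 41 members, of the further mitosis genes (574 and 822 TPM) and of the fibre and precursor markers were higher in replicate 2. Single markers were again split. Among fibre markers, Acta1, Ckm and Myh3 were higher in replicate 1, and Myh8, Tnnt3 and Tnnc2 in replicate 2. Among precursor markers, Mymk and Myf5 were higher in replicate 1, and Myod1, Myog and Pax7 in replicate 2. The part of these cell types in the cell cycle values was not tested.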

How the data were processed

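Both libraries are total RNA of newborn mouse muscle, and the labels' protocols name mirVana extraction, a SmartSeq protocol and added spike-ins. Per the file headers the deposited tables are in the format of RSEM, and per the notes deposited with them the build was mm10 with GENCODE M4. Neither aligner nor strand setting is given in the sources used here, so antisense reads may be included. The authors deposited expected counts without normalization, TPM scaled to a fixed sum with spike-ins included, FPKM, and for each transcript its percent of the TPM of its gene. Symbols, coordinates and transcript types were taken from GENCODE M21 on GRCm38 by identifier without version, and promoters from RefSeq GRCm38.p6.

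Detection, sums, log2(TPM + 1) ratios centred on genes of 10 or more counts in each library, and motif counts were computed with scipy 1.17.1, numpy 2.4.6 and pandas 2.3.3 under Python 3.11.15, and figures were drawn in matplotlib 3.10.9. The scripts were tested on simulated data. edgeR 4.0.16 in R 4.3.3 gave TMM factors from rounded counts for an alternative scaling. Members and gene lists were chosen with earlier results of these data known. All 41 members are named, of each further pathway list the 3 with the highest mean TPM among those detected in both libraries, and of cell type lists the markers detected in both or at 0 in both. Myf5, Pax7, Pecam1, Kdr, Epor and Tfrc, and the regulators of transcription, were named after their values were seen. Ratios with 1 to 3 counts carry exact 95% intervals. Alternatives were other detection rules, posterior means, FPKM, transcript sums, thinning of replicate 2, other pseudocounts and centrings, and each library alone.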

Additional observations from a re-analysis of the deposited data

How the results depend on the processing

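With a rule of at least 1 expected count and no TPM minimum, 3 members were found in neither library in place of 7, and 27 in both in place of 19. With a TPM of at least 10, 17 were in both. With 1 library left out, the members detected ran from 22 (replicate 1 remaining) to 31 (replicate 2 remaining), and those of mitosis from 12 to 20. As FPKM all sums were lower, 254 in place of 324 for replication, 755 in place of 962 for mitosis, 436 in place of 552 for G1 and 1445 in place of 1838 for all members. Under each other detection rule the counts stayed within 1.5 times. With all members kept, unread ones included, the median ratio was -0.31 for all members, -0.18 for replication and -0.60 for G1. That of mitosis was -0.04 in place of -1.50. This is the value of a gene with 0 reads in both libraries, such as Aurka, so it says nothing on direction. Centring on spike-ins gave medians of -1.80 for all members, -1.26 for replication, -2.45 for mitosis and -1.80 for G1. Of 114 recomputed ratios of the single genes detected in both, 111 moved by less than 2-fold. Leaving out the centring and centring on spike-ins each shift all genes alike by less than 2-fold. Those settings could therefore not move a gene by more. Centring on spike-ins changed the sign of 5 (Ccnb2 to -0.75, Aurkb to -0.79, Ube2c to -0.68, Hmgb2 to -0.91 and Ccnd2 to -0.10), none of them over 2-fold before. The 3 that moved by more were these: Tyms was 3.68 and Nusap1 3.60 under TMM scaling of reads, and Birc5 was 2.64 with a pseudocount of 10 TPM. The causes were not tested. No paired analysis was possible because the libraries form a single group. At 13 pg of input and 2 libraries, absence from the tissue and absence from the sampled RNA cannot be told apart, and 0 reads is a limit of detection.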

Other observations

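Targets of p53 other than Cdkn1a were read as a neighbouring programme. Of 11, 4 (36.4%) were detected in both libraries, against 18.2% of protein coding genes. Another 3 were detected in replicate 1 alone, 2 in replicate 2 alone and 2 in neither. The summed levels were 588 TPM in replicate 1 and 508 TPM in replicate 2. Ccng1, cyclin G1, had 157 and 331 TPM. Phlda3, a repressor of Akt signalling, had 74.9 and 96.3 TPM, and Sesn1, a stress-response protein, had 60.6 and 26.7 TPM. Cdkn1a and Ccng1 were both higher in replicate 2 and Sesn1 in replicate 1, so the targets did not share a side.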
